A study of Mus musculus with 18 samples.

Results

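The 10 genes described here belong to the integrated stress response and to the amino acid metabolism it controls, and were taken by symbol from the 48709 genes listed in each library: the regulators Atf4, Atf5, Atf3, Ddit3 and Trib3, and the enzymes and effectors Asns, Psat1, Phgdh, Chac1 and Eif4ebp1. Their mRNA was measured by RNA-seq of whole quadriceps from 18 mice, with 1 library per mouse, in a study of dyW mice (B6.129S1(Cg)-Lama2tm1Eeng/J), in which Lama2, the gene of the laminin alpha 2 chain, is disrupted, and which model the congenital muscular dystrophy caused by LAMA2 loss in people; the labels call the strain a knock-out kept as hemizygotes. C57BL/6J mice were the wild type (WT) controls. One cohort, aged 5 weeks and with no treatment in its labels, held untreated WT (n = 3) and untreated dyW mice (n = 4). The other cohort held WT PBS (n = 3), dyW PBS (n = 3), WT TD139 (n = 2) and dyW TD139 mice (n = 3). TD139 is an inhibitor of galectin-3, and its dose, route and duration are not given in the sources used here. The treated mice carry an age of 3 weeks in their labels, while the protocol gives collection at 5 weeks. The labels give each library its own animal number, and every group held both sexes.

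The integrated stress response starts when kinases that sense unfolded protein, amino acid shortage, double-stranded RNA or haem shortage phosphorylate the translation factor eIF2. General translation then falls while the Atf4 mRNA is translated more, so that ATF4 protein is set in large part at translation and is not read from its mRNA. ATF4, a basic leucine zipper transcription factor, induces genes of amino acid synthesis and transport, such as Asns, Psat1 and Phgdh, and the feedback genes Ddit3, Trib3, Chac1 and Eif4ebp1. In mouse skeletal muscle this programme is known above all from mitochondrial myopathies.

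ATF4 binds DNA with a partner at a C/EBP-ATF response element, whose core was searched here as TGATGNAA on both strands of RefSeq promoter windows of 300 bases (250 before and 50 after the annotated start site; GRCm38.p6). Such a window was found for 9 of the 10 genes, Eif4ebp1 being the exception, and the core lay in the windows of 4 of them, Asns, Trib3, Chac1 and Atf3. Over all 32851 windows of that length, 3.97% held the core. The stretches with the core are shown because these 4 genes did not move alike in the results that follow. They are printed 5′ to 3′ on the strand of each gene, with the core or its reverse complement in capitals: Asns from chr6:7693210-7693459 (minus strand), Trib3 from chr2:152344031-152344280 (minus strand), Chac1 from chr2:119350992-119351241 (plus strand) and Atf3 from chr1:191183334-191183583 (minus strand).
Asns: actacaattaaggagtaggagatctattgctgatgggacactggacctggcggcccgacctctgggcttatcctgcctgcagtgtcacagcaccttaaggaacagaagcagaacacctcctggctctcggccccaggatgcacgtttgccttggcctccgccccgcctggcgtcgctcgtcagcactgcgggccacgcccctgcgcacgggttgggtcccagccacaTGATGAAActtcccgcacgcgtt
Trib3: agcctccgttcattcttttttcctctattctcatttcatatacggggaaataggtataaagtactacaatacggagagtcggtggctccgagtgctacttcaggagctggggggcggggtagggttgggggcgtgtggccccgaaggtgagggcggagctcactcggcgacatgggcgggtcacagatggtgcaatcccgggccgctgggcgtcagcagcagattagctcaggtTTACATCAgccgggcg
Chac1: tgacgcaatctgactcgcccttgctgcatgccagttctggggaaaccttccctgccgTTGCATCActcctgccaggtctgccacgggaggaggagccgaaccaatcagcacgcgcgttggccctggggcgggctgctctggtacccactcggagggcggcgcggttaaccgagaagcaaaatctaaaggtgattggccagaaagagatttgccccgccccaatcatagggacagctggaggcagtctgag
Atf3: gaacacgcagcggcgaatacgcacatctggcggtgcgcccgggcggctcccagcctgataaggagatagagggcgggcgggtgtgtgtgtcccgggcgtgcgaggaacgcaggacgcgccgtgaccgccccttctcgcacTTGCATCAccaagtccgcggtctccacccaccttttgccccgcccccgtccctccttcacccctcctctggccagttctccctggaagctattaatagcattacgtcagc
The capitals begin at position -23 from the start site in Asns, at position 15 after it in Trib3, at position -193 in Chac1 and at position -110 in Atf3. Asns reads TGATGAAA, and Chac1 and Atf3 both read TTGCATCA, the reverse complement of TGATGCAA, which was in 0.895% of all windows. Chac1 also held TGACGCAA at position -250, a sequence found in 0.49% of windows, and Ddit3 held an AP-1 match, TGACTCA, at position -242, where 5.2% of windows hold TGAGTCA in either orientation. Of the other motifs searched, TGACGTCA and the endoplasmic reticulum stress element were not in the windows of these genes.

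Sequencing depth was 15814395 to 45249183 exon reads per library, lowest in dyW PBS replicate 1. Lama2 was at 0.545 to 1.10 RPKM (reads scaled to the exon length of the gene and to the mapped reads of the library) in the 10 dyW libraries and at 2.18 to 5.02 RPKM in the 8 WT libraries. Every library held muscle, since 10 genes of mature fast fibres summed to 53715 to 130360 RPKM. These genes cannot tell quadriceps from another fast muscle. Several libraries stood apart: WT PBS replicate 1 had 442 RPKM of the slow myosin Myh7, untreated dyW replicates 3 and 4 had 236 and 291 RPKM of Myh7, and untreated WT replicate 3 had 691 RPKM of the heat shock gene Hspa1a against 1.08 to 14.1 RPKM elsewhere. The reads of all 10 genes were uniquely mapped, and the lowest count was 17 reads, for Trib3. In whole muscle, fewer cells of a type and less RNA per cell cannot be told apart.

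By length-corrected level, Atf4 led the group and Trib3 closed it. In untreated WT muscle the mean was 66.9 ± 7.49 RPKM for Atf4, 23.3 ± 7.37 for Atf5, 17.2 ± 6.32 for Chac1, 11.1 ± 1.05 for Eif4ebp1, 9.32 ± 7.15 for Atf3 and 3.69 ± 1.36 for Ddit3 (RPKM ± SD, n = 3). The serine enzymes followed at 1.55 ± 0.185 for Phgdh and 1.04 ± 0.414 for Psat1, then Asns at 0.750 ± 0.340 and Trib3 at 0.384 ± 0.108 RPKM. Neighbours from Atf5 through Chac1, Eif4ebp1 and Atf3 to Ddit3, and Psat1 and Asns, differed by less than the larger SD of each pair.

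Untreated dyW muscle was compared with untreated WT muscle to ask how the diseased muscle differs from healthy muscle. Asns, Psat1 and Phgdh, which make asparagine and serine, were 2.76 to 3.56 times as high in dyW as in WT muscle, and the regulators Trib3 and Atf5 and the translation inhibitor Eif4ebp1 were also higher. Chac1, which breaks down glutathione, was lower, at 0.269 times its WT level. Atf4 itself had a log2 fold change near 0. In all, 6 of the 10 genes were higher and 1 was lower (edgeR quasi-likelihood test on counts scaled by TMM, the trimmed mean of M values, with a Benjamini-Hochberg adjusted p under 0.05 over 14846 genes). Over all genes tested, 24.7% were higher and 25.1% lower by the same rule. The median log2 fold change of the 10 genes was 0.72, beside 0.03 over all genes. The 10 genes were chosen with earlier results of these data known, so these contrasts with all genes are descriptions and no test of the set. On the deposited RPKM scale, which has no correction for composition, the median over all genes was 0.51 (limma on log2(RPKM + 0.1)), with 51.4% of genes higher and 8.71% lower, so fold changes below are given on the TMM scale unless RPKM is named.

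**Figure D1:**
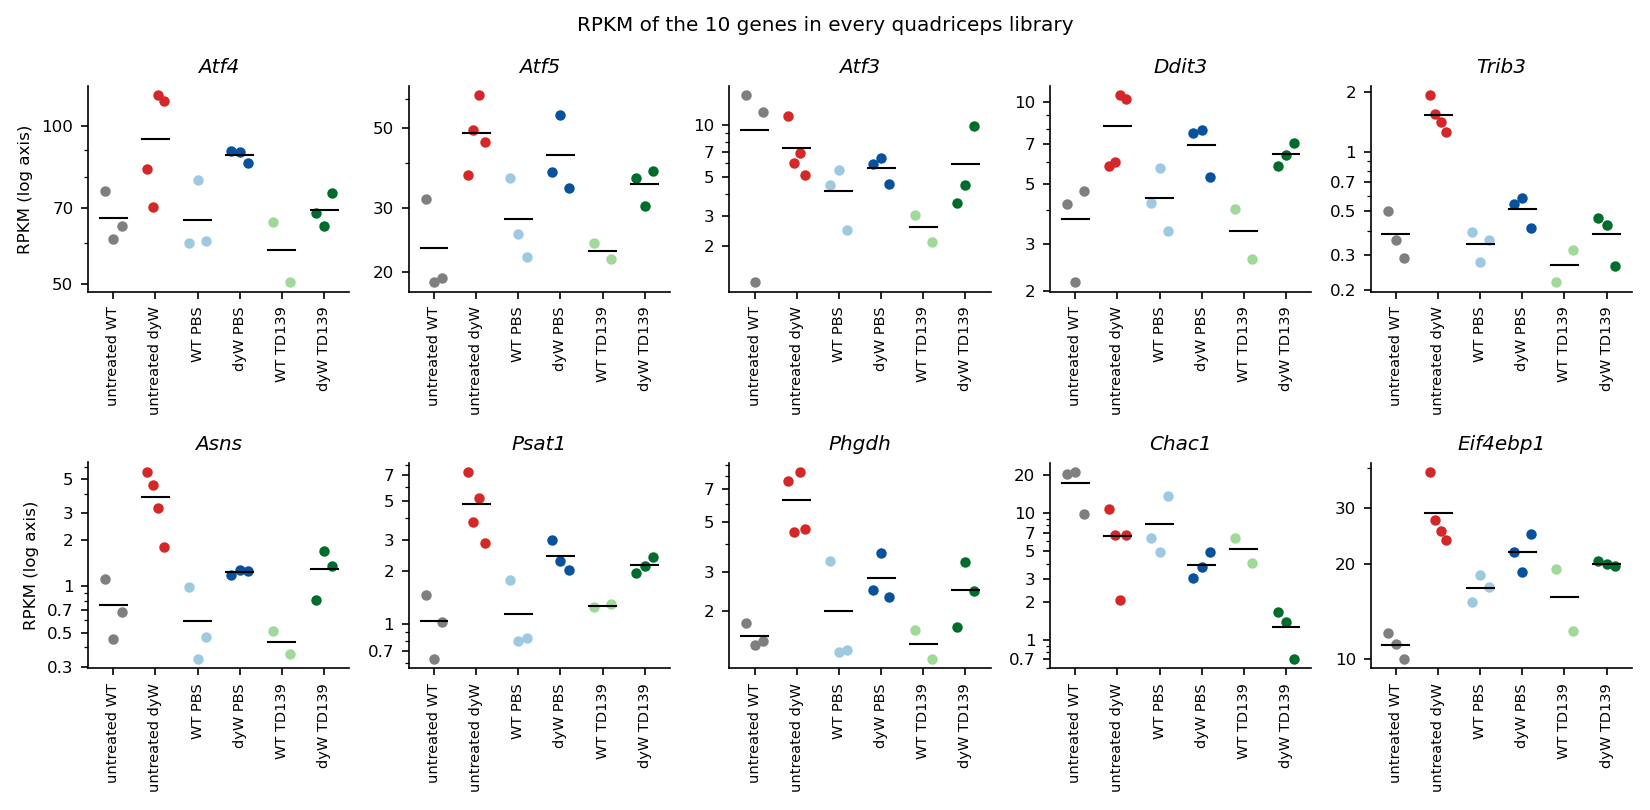
RPKM of the 10 genes in each of the 18 libraries, by group, on log axes that differ between panels. Points are single mice and black lines are group means. In untreated muscle the dyW points of Asns, Psat1, Phgdh, Trib3, Eif4ebp1, Atf5 and Ddit3 lie above every WT point. The points of Chac1 overlap, at 9.90 RPKM in WT and 10.7 RPKM in dyW. RPKM has no correction for composition, and 51.4% of all genes tested were called higher in dyW on this scale (limma on log2(RPKM + 0.1)). How many of all genes lie apart in this way was not counted.

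Atf4 was read at 75.3, 61.0 and 64.5 RPKM in untreated WT mice and at 82.7, 70.1, 115 and 112 RPKM in untreated dyW mice. The groups overlapped, and dyW replicates 3 and 4 were the highest. Its fitted log2 fold change was -0.05 ± 0.17 (SE; adjusted p = 0.825, edgeR), while on the RPKM scale it was 0.48 (adjusted p = 0.0618, limma).

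Atf5, a related basic leucine zipper factor that is known from the mitochondrial stress response, was at 31.8, 18.7 and 19.3 RPKM in WT and at 37.1, 49.3, 61.4 and 45.7 RPKM in dyW mice. Every dyW value was above every WT value on this RPKM scale, which has no correction for composition. The log2 fold change was 0.52 ± 0.18 (SE; adjusted p = 0.0402, edgeR), and it no longer passed in 7 of 17 alternatives, where the adjusted p reached 0.148. Those 7 left out WT replicate 2 or 3, dyW replicate 2, 3 or 4, or dyW replicates 3 and 4 together, or added the adipocyte term described below.

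Atf3, an early stress gene whose product mostly represses transcription, varied more among WT mice than between genotypes: WT libraries had 14.8, 1.23 and 11.9 RPKM and dyW libraries 11.3, 6.00, 6.92 and 5.14 RPKM. WT replicate 2 was far below the other two. Between genotypes its log2 fold change was -0.84 ± 0.63 (SE; adjusted p = 0.292, edgeR). Without WT replicate 2 it was -1.35, with an adjusted p of 0.0131 (edgeR), so that 1 library decided the call, and on the RPKM scale it was 0.20 (adjusted p = 0.834, limma).

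Ddit3, which encodes the pro-apoptotic factor CHOP, was at 4.22, 2.15 and 4.71 RPKM in WT and at 5.82, 6.03, 10.6 and 10.3 RPKM in dyW mice. All dyW values were higher on this RPKM scale, and dyW replicates 3 and 4 were again the highest. The log2 fold change of 0.60 ± 0.30 (SE) did not pass (adjusted p = 0.123, edgeR), although it did on the RPKM scale, at 1.15 (adjusted p = 0.0153, limma). It shares 68 exon bases (3.97%) with Mars on the opposite strand, and Atf5 shares 82 (4.11%) with Nup62 and Il4i1, also opposite, so reads there cannot be told apart, since the strand setting of the counting is not stated.

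Trib3, a pseudokinase that binds ATF4 and restrains it, was the clearest of the regulators. WT mice had 0.503, 0.359 and 0.291 RPKM, and dyW mice had 1.92, 1.54, 1.41 and 1.26 RPKM. The groups did not overlap, on counts of 25 to 38 reads in WT and 102 to 196 reads in dyW libraries. Its log2 fold change was 1.47 ± 0.26 (SE; adjusted p = 0.00232, edgeR).

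Asns, asparagine synthetase, was at 1.12, 0.452 and 0.678 RPKM in WT and at 5.56, 4.57, 3.23 and 1.81 RPKM in dyW mice. The lowest dyW mouse was above the highest WT mouse, and the dyW mice differed widely among themselves. Its log2 fold change of 1.83 ± 0.42 (SE; adjusted p = 0.00747, edgeR) was the largest rise among the 10 genes.

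Psat1 and Phgdh catalyse steps of serine synthesis from a glycolytic intermediate. Psat1 was at 1.46, 0.631 and 1.03 RPKM in WT and at 7.32, 3.80, 5.20 and 2.87 RPKM in dyW mice, with no overlap. It was higher by 1.69 ± 0.36 on the log2 scale (SE; adjusted p = 0.00527, edgeR). Phgdh was at 1.76, 1.42 and 1.47 RPKM in WT and at 7.57, 4.50, 8.35 and 4.65 RPKM in dyW mice, also with no overlap. Its log2 fold change was 1.47 ± 0.24 (SE) with the smallest adjusted p of the 10 genes, 0.00145 (edgeR).

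Chac1, a gamma-glutamylcyclotransferase that degrades glutathione and is a textbook target of ATF4 with CHOP, moved the other way. WT mice had 20.4, 21.2 and 9.90 RPKM, and dyW mice had 10.7, 6.70, 2.06 and 6.79 RPKM. The groups overlapped by a single pair, WT replicate 3 and dyW replicate 1. The log2 fold change was -1.89 ± 0.50 (SE; adjusted p = 0.0132, edgeR). It was lower under all 17 alternatives and passed in 16, with an adjusted p of 0.0502 without WT replicate 2. In the authors' deposited table named dyW against WT, with no treatment in its name, the same 7 genes had an FDR p under 0.05, with log2 fold changes of 1.81 for Asns and -1.91 for Chac1 among 3508 genes higher and 3633 lower.

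Eif4ebp1 encodes 4E-BP1, which blocks cap-dependent translation when it is not phosphorylated. WT mice had 12.1, 11.1 and 9.99 RPKM and dyW mice 39.0, 27.4, 25.4 and 23.7 RPKM, so the groups were well apart on this scale. On the TMM scale it rose by 0.85 ± 0.21 (SE; adjusted p = 0.00902, edgeR).

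**Figure D2:**
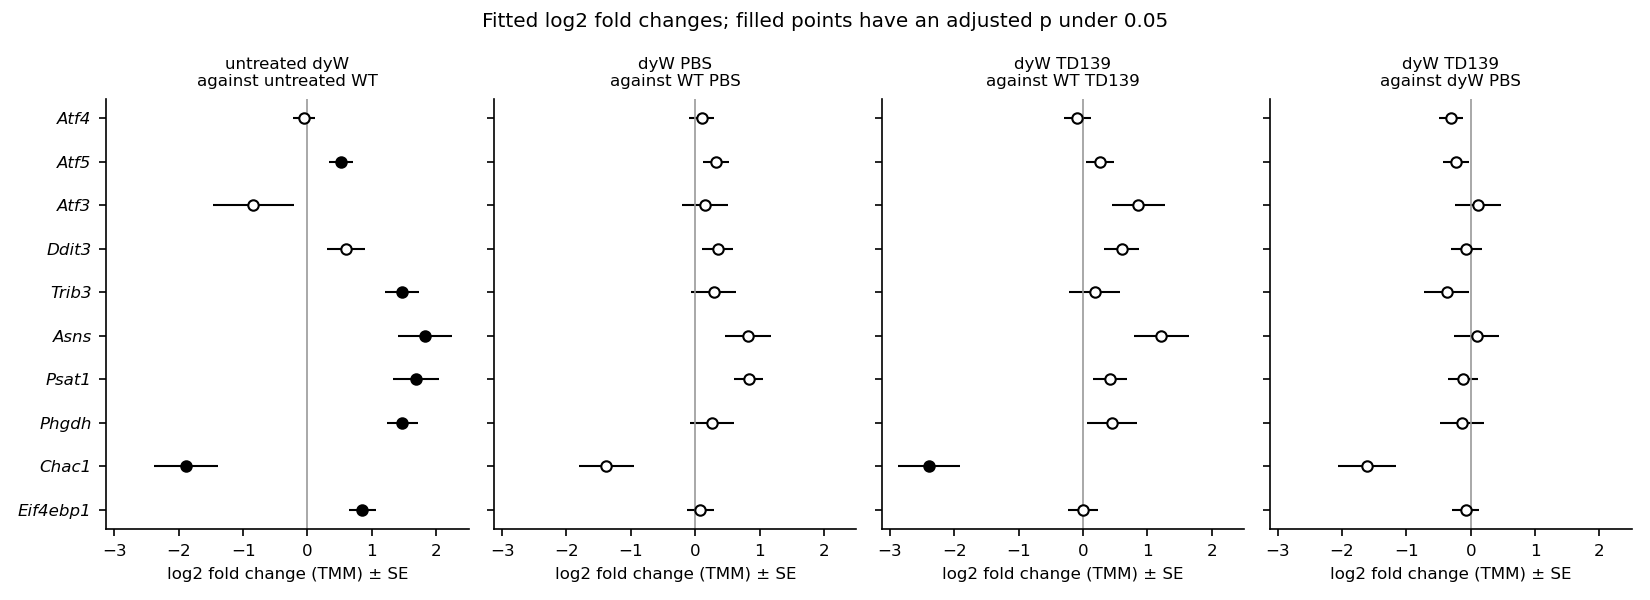
Fitted log2 fold changes (x axis, TMM scale) of the 10 genes in 4 comparisons. Bars are 1 SE, filled points have an adjusted p under 0.05, and the vertical line is no change. Filled points number 7 in the untreated comparison, 1 in dyW TD139 against WT TD139 (Chac1), and 0 in the others.

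Markers of other cell types moved with the genotype in the same libraries. The 10 measured macrophage genes summed to 65.3 to 109 RPKM in untreated WT and to 568 to 798 RPKM in untreated dyW muscle, and 10 of 10 were higher. Genes of regenerating fibres and myoblasts were higher in 9 of 10 (16.9 to 35.0 against 204 to 349 RPKM), and those of fibroblasts in 5 of 10 (722 to 897 against 1457 to 2687 RPKM). Neutrophil genes were higher in 4 of 4 tested of 6, with Ly6g at 0 in all untreated dyW libraries, endothelial genes in 3 of 7, lymphocyte genes in 1 of 5 tested of 7, and keratinocyte genes in 1 of 2 tested of 6, with Krt5 and Krt1 at 0 in both groups. Erythroid genes passed in 0 of 5 tested. Genes of mature fast fibres were lower in 8 of 10 (80916 to 95343 against 53715 to 71449 RPKM). The part of these cells in the changes of the stress genes was not tested. Only the adipocyte genes, treated next, were also taken into the model.

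The level of Asns followed adipocyte genes from mouse to mouse. Over deviations from the group means in 18 libraries, the gene most like Asns among 15771 was Adipoq, the fat cell hormone adiponectin (Pearson r = 0.98, Spearman rho = 0.99; r = 0.98 without the 2 farthest libraries), followed by the adipocyte genes Lgals12 (r = 0.97) and Retn (r = 0.97). These values describe libraries that share tissue and depth, and no test was made. Adipoq was at 44.7, 10.9 and 16.7 RPKM in untreated WT and at 200, 149, 58.9 and 22.4 RPKM in untreated dyW mice, in the same order within each genotype as Asns. Across genotypes the order broke: dyW replicate 4 had less Adipoq than WT replicate 1 but more Asns, 1.81 against 1.12 RPKM. All 6 adipocyte genes together summed to 88.7 to 367 RPKM in WT and to 274 to 2236 RPKM in dyW muscle, and 1 of the 6 passed as higher. Psat1 (r = 0.67) and Phgdh (r = 0.66) followed Adipoq less closely, Trib3 (r = 0.30) and Chac1 (r = 0.22) weakly, and Atf4 inversely (r = -0.52).

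With the mean level of the 6 adipocyte genes as a term beside the genotype, an alternative added after seeing this pattern, the log2 fold change of Asns was 0.94 in place of 1.83 (adjusted p = 0.00326, edgeR). Psat1 was at 1.06 (adjusted p = 0.00971), Phgdh at 1.24 (adjusted p = 0.00731), Trib3 at 1.16 (adjusted p = 0.0102) and Chac1 at -2.19 (adjusted p = 0.0247), all past the threshold in edgeR. Atf5, at 0.47 (adjusted p = 0.108), and Eif4ebp1, at 0.56 (adjusted p = 0.0545), did not pass in that model, which left 4 genes higher and 1 lower. Of all 14846 genes tested in that model, 3311 were higher and 3293 lower, beside 3671 and 3724 without the term. Without dyW replicates 3 and 4, the libraries with the high Myh7, 5 of the stress genes were higher and 1 lower. In that fit 3204 of all 14784 genes were higher and 2902 lower.

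**Figure D3:**
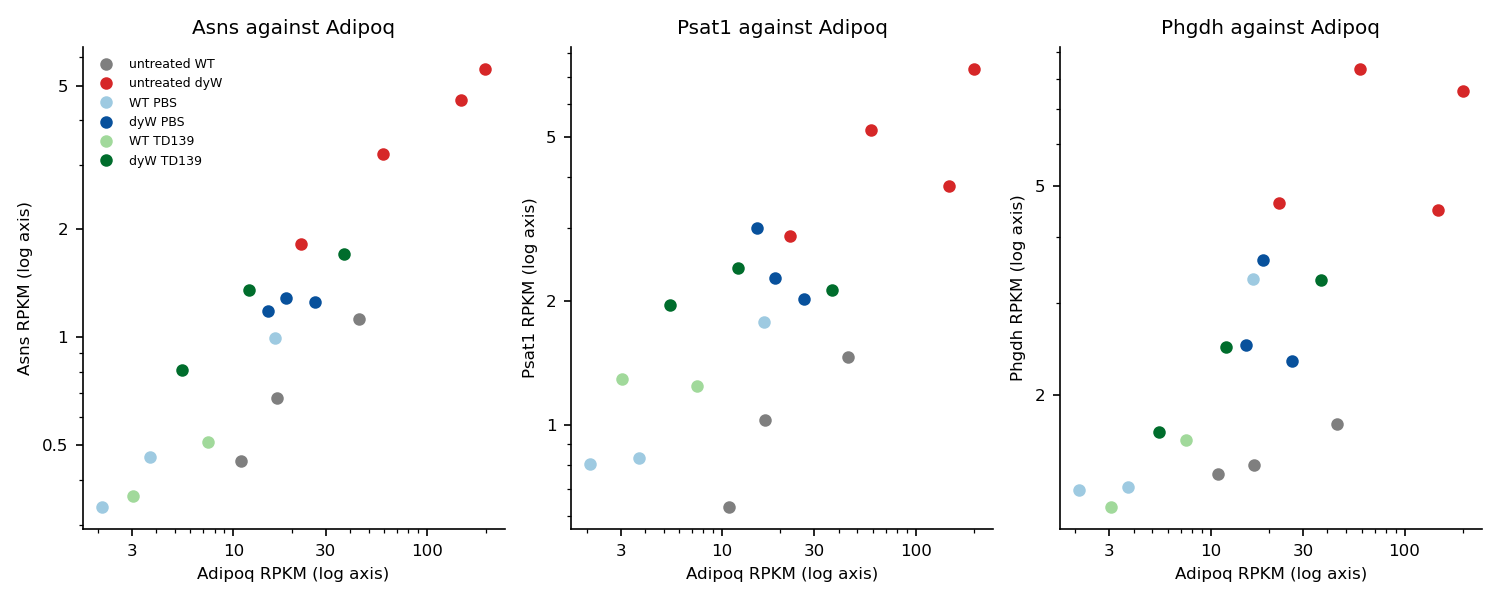
RPKM of Asns, Psat1 and Phgdh (y axes) against RPKM of the adipocyte gene Adipoq (x axes) in the 18 libraries, on log axes, coloured by group. Asns climbs with Adipoq within the untreated dyW mice from 1.81 to 5.56 RPKM, and the untreated WT mice reach 1.12 RPKM.

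The wider pathway held genes that were higher and genes that were lower, and the examples named from each list are those with the smallest p. The share of all genes tested, to be set beside every list count below, was 24.7% higher and 25.1% lower (edgeR). By RPKM it was 51.4% and 8.71% (limma on log2(RPKM + 0.1)). Of 13 genes around the eIF2 switch, 1 was higher, the kinase PERK (Eif2ak3, log2 fold change 0.40 ± 0.15 SE, adjusted p = 0.0486, edgeR), and 8 were lower, among them Eif2s1 at -0.48 ± 0.12, Eif2b2 at -0.41 ± 0.11 and Impact at -0.54 ± 0.14, which fell on the TMM scale but were above 0 on the RPKM scale (0.07, 0.14 and 0.03). The median of that list was -0.36, and on the RPKM scale it was 0.19, with 3 genes higher and 0 lower (limma). With the adipocyte term in the model 0 were higher and 2 lower, with a median of -0.34 (edgeR). Eif2ak3 no longer passed in 8 of 17 alternatives, among them those without any 1 WT library or without dyW replicate 1 or 2. Impact did not pass without WT replicate 3, and neither Eif2ak3, Eif2b2 nor Impact passed with the adipocyte term.

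Of 19 tested among 20 other targets of ATF4 and CHOP, 2 were higher and 3 lower, beside 24.7% and 25.1% of all genes tested. The median log2 fold change of that list was 0.16. The higher genes were Pmaip1 (2.85 ± 0.41 SE, adjusted p = 0.000838) and Bbc3 (1.75 ± 0.28, adjusted p = 0.00143, edgeR), which encode the apoptosis inducers NOXA and PUMA and are also known targets of p53. The lower genes were the alanine aminotransferase Gpt2 (-2.67 ± 0.41), the lipoprotein receptor Vldlr (-1.29 ± 0.20) and the ATF4 partner Cebpg (-0.43 ± 0.12), the last of which was at 0.11 on the RPKM scale and did not pass without WT replicate 2 or dyW replicate 2, 3 or 4. Fgf21, a hormone that ATF4 induces in muscle under mitochondrial stress, was at 0, 0 and 0.0260 RPKM in untreated WT and at 0.0438, 0.593, 0.414 and 0.165 RPKM in untreated dyW mice. It is the listed gene that was not tested at these low counts, and it is named after its values were seen. The stress hormone gene Gdf15, read beside it, overlapped between the genotypes. It was at 0.212, 0.256 and 1.35 RPKM in untreated WT and at 0.281, 0.195, 1.08 and 0.580 RPKM in untreated dyW mice.

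In serine, glycine and folate one-carbon metabolism, 3 of 15 genes were higher and 5 lower, with a median of 0.19. The higher genes were the mitochondrial Pck2 (1.30 ± 0.18) and Mthfd1l (1.89 ± 0.44) and the thymidylate synthase Tyms (1.33 ± 0.25). Aldh1l2 (-1.62 ± 0.19), Mthfd1 (-0.78 ± 0.10) and Shmt1 (-1.01 ± 0.19), all folate enzymes, were lower. On the RPKM scale Mthfd1 and Shmt1 did not pass, and that list held 10 genes higher and 1 lower (limma). Among 18 enzymes of asparagine, glutamine, proline, arginine and branched-chain amino acids, 3 were higher and 3 lower, with a median of 0.19. The urea cycle gene Ass1 led the rises (2.17 ± 0.29, adjusted p = 0.000577, edgeR), and Asrgl1, which splits asparagine, was lower (-1.12 ± 0.20).

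Amino acid transporters split, with 8 of 18 higher, 4 lower and a median of 0.04. Slc38a1 (1.74 ± 0.16), Slc7a5 (1.95 ± 0.25), which carries large neutral amino acids, and Slc43a2 (1.03 ± 0.11) were higher. Slc38a4 (-2.30 ± 0.27), Slc7a2 (-1.42 ± 0.27) and Slc38a2 (-0.96 ± 0.25) were lower. Slc38a2 did not pass without WT replicate 3, without dyW replicates 3 and 4 together, or on the RPKM scale. Cytosolic aminoacyl-tRNA synthetases, which load amino acids onto tRNA, were lower in 12 of 20 and higher in 0, with a median of -0.40 that was 0.15 on the RPKM scale. Farsb (-0.69 ± 0.10), Eprs (-0.99 ± 0.15) and Rars (-0.63 ± 0.10) had the smallest p, and Farsb and Rars did not pass on the RPKM scale (limma).

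Glutathione genes other than Chac1 were higher in 6 of 13, led by Gpx1 (0.88 ± 0.11), and lower in 4, led by the Chac1 paralogue Chac2 (-0.85 ± 0.17), with a median of 0.41. On the RPKM scale 7 of them were higher and 0 lower, and Chac2 did not pass (limma). Of 19 partners of Eif4ebp1 in cap-dependent translation and mTORC1, 2 were higher, Eif4a1 (0.61 ± 0.14) and Eif4ebp3 (2.96 ± 0.83), and 11 were lower, led by the mTOR inhibitor Deptor (-1.83 ± 0.28) and by Tsc1 (-1.42 ± 0.23), with a median of -0.60, against 4 higher, 3 lower and a median of -0.06 on the RPKM scale (limma). Eif4ebp3 lost its call without WT replicate 2 or 3. Relatives of Trib3 and of the ATF factors were higher in 3 of 16, led by Batf3 (2.60 ± 0.50), and lower in 5, led by Creb1 (-0.89 ± 0.12), with a median of -0.08 that was 0.45 on the RPKM scale.

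The ATF6 and XBP1 arms of the unfolded protein response, a neighbouring pathway, were higher in 9 of 20 genes and lower in 3, with a median of 0.25. The disulfide isomerases Pdia4 (0.84 ± 0.12) and Pdia3 (1.12 ± 0.17) and the secreted factor Manf (0.86 ± 0.14) led the higher genes. Immediate early genes, the family in which Atf3 is often counted, were higher in 4 of 20, led by Junb (1.52 ± 0.15) and Fosl1 (4.09 ± 0.49), and lower in 3, led by Nr4a1 (-2.28 ± 0.17), with a median of 0.14. On the RPKM scale the split moved towards higher genes in each of these lists, to 11 higher and 2 lower among the ATF4 and CHOP targets, 12 and 1 among the 18 amino acid enzymes, and 7 and 2 among the synthetases. Over all 14846 genes tested, 51.4% were higher and 8.71% lower on that scale (limma on log2(RPKM + 0.1)).

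**Figure D4:**
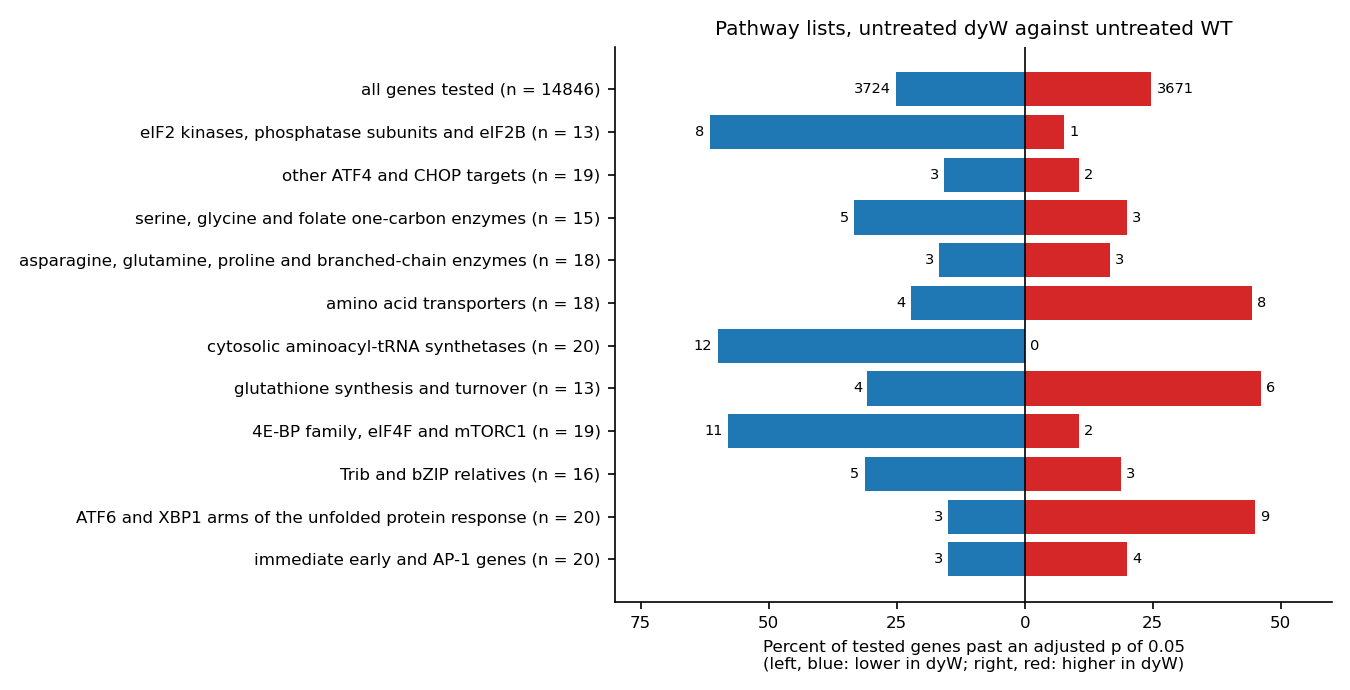
Percent of tested genes in each pathway list that were lower (left) or higher (right) in untreated dyW than in untreated WT muscle, with the number of genes at each bar and all 14846 genes on top. On this TMM scale the longest bars of lower genes are 8 of 13 around eIF2 and 12 of 20 among the synthetases, and those of higher genes 6 of 13 for glutathione and 9 of 20 for the unfolded protein response. With the adipocyte term in the model, not drawn, the lower genes were 2 of 13 around eIF2 and 10 of 20 among the synthetases.

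The vehicle-treated mice of the other cohort give a second comparison of the genotypes. None of the 10 genes passed there, while 2.4% of 15331 genes were higher and 0.28% lower in dyW PBS than in WT PBS muscle (edgeR). Those 368 and 43 genes became 113 to 465 and 6 to 136 when 1 library was left out, the lowest counts without WT PBS replicate 3 and dyW PBS replicate 1 and the highest without WT PBS replicate 1. The median log2 fold change of the 10 genes was 0.28, beside -0.03 over all genes, again a description of genes chosen with earlier results of these data known. At an unadjusted p under 0.05 in edgeR, 3 of the 10 differed, Psat1, Asns and Chac1, beside 2315 of all 15331 genes. DESeq2 called 1 of the 10 higher (Psat1, adjusted p = 0.0239) and 1 lower (Chac1), beside 685 of all genes higher and 179 lower.

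Psat1 was at 1.77, 0.803 and 0.831 RPKM in WT PBS and at 3.01, 2.28 and 2.02 RPKM in dyW PBS mice, with no overlap. Its log2 fold change was 0.83 ± 0.23 (SE; adjusted p = 0.0851, edgeR). It passed in 4 of 15 alternatives, and without WT PBS replicate 1, the library with high Myh7, it was 1.17 (adjusted p = 0.0109, edgeR). Asns was at 0.993, 0.336 and 0.465 RPKM in WT PBS and at 1.18, 1.29 and 1.25 RPKM in dyW PBS mice. All dyW values were higher, and WT PBS replicate 1 was again the highest WT mouse. The fitted log2 fold change of Asns was 0.82 ± 0.36 (SE; adjusted p = 0.315, edgeR). By RPKM every dyW PBS value of Atf4, Trib3 and Eif4ebp1 was also above every WT PBS value. Their fitted log2 fold changes on the TMM scale were 0.10, 0.29 and 0.08. How many of all genes lay apart in this way was not counted.

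Chac1 did not pass in edgeR, with 6.37, 4.95 and 13.6 RPKM in WT PBS and at 3.07, 3.76 and 4.90 RPKM in dyW PBS mice. The groups lay side by side, 4.95 against 4.90 RPKM at the nearest. The log2 fold change was -1.38 ± 0.43 (SE; adjusted p = 0.128, edgeR), and DESeq2 called it (adjusted p = 0.0209). Phgdh was at 3.33, 1.32 and 1.34 RPKM in WT PBS and at 2.49, 3.62 and 2.32 RPKM in dyW PBS mice, overlapping through WT PBS replicate 1, with a log2 fold change of 0.26 ± 0.34.

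The remaining genes of the PBS comparison had log2 fold changes of 0.10 ± 0.19 for Atf4, 0.32 ± 0.20 for Atf5, 0.15 ± 0.36 for Atf3, 0.35 ± 0.24 for Ddit3, 0.29 ± 0.35 for Trib3 and 0.08 ± 0.21 for Eif4ebp1. Trib3 was at 0.393, 0.278 and 0.359 RPKM in WT PBS and at 0.544, 0.586 and 0.410 RPKM in dyW PBS mice, well under the 1.26 to 1.92 RPKM of untreated dyW mice. Among the pathway lists, Pmaip1 (4.29 ± 0.65) and the immediate early gene Fosl1 (4.77 ± 0.84) were higher and Gpt2 (-1.18 ± 0.26) lower in this comparison. Pmaip1 was near 0 in WT PBS, at 0.00961 to 0.0197 RPKM, and at 0.292 to 0.612 RPKM in dyW PBS. Over 15 alternatives the log2 fold change was 0.46 to 4.44 for Pmaip1 and 0.59 to 5.58 for Fosl1. Gpt2 lost its call in 6 of 15 alternatives (adjusted p up to 0.149), among them those without dyW PBS replicate 1 or 2 or WT PBS replicate 2 or 3, and Fosl1 in 2, without WT PBS replicate 2 or 3. Macrophage genes were higher in 9 of 10 there, at 149.7 to 400.3 RPKM against 47.8 to 55.0 RPKM, genes of regenerating fibres in 7 of 10, at 139 to 183 against 33.7 to 52.0 RPKM, and those of fibroblasts in 2 of 10, at 930.3 to 1849 against 716 to 1427 RPKM. Neutrophil genes were higher in 1 of 3 tested and lymphocyte genes in 1 of 4, and the adipocyte genes passed in 0 of 6, at 121 to 261 against 16.8 to 95.4 RPKM. The part of these cells was not tested.

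Whether the genotype effect differed between the cohorts was tested as a difference of effects on all 18 libraries. It passed for 0 of the 10 genes in edgeR and in DESeq2, which called 553 of all genes higher and 636 lower. In edgeR 3 of the 10 had an unadjusted p under 0.05, beside 3583 of all 15771 genes. The difference was called higher in 0.526% and lower in 1.2% of all genes (edgeR). Those 83 and 189 genes became 0 and 0 without untreated WT replicate 3, untreated dyW replicate 3, or dyW PBS replicate 2 or 3, at most 2 in either direction without untreated WT replicate 2, untreated dyW replicate 4 or WT PBS replicate 1, and 303 and 334 without WT PBS replicate 3. The largest differences were 1.19 ± 0.44 for Phgdh (adjusted p = 0.132), 1.16 ± 0.41 for Trib3 (adjusted p = 0.119), 1.00 ± 0.57 for Asns (adjusted p = 0.313), 0.84 ± 0.44 for Psat1 (adjusted p = 0.263) and 0.76 ± 0.30 for Eif4ebp1 (adjusted p = 0.155), all with the larger effect in the untreated cohort. For Chac1 it was -0.52 ± 0.71 (adjusted p = 0.697). Of the pathway genes, Slc38a4 (-1.89 ± 0.35) and Nr4a1 (-1.79 ± 0.36) passed, both more strongly lower in untreated dyW mice. Slc38a4 lost the call in 8 of 21 alternatives (adjusted p up to 0.0865), each without 1 library: untreated WT replicate 2 or 3, untreated dyW replicate 3 or 4, WT PBS replicate 1 or 2, or dyW PBS replicate 2 or 3. Nr4a1 lost it in 10 (up to 0.0969), on the RPKM scale and without untreated WT replicate 2 or 3, untreated dyW replicate 2, 3 or 4, WT PBS replicate 1, or dyW PBS replicate 2 or 3. The age label, the cohort and the PBS treatment differ together between these mice and cannot be told apart.

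TD139 was compared with PBS in dyW mice to ask what galectin-3 inhibition does to the diseased muscle. By edgeR 0 of the 10 genes and 0% of 15331 genes passed in either direction, with 583 genes at an unadjusted p under 0.05, and DESeq2 called 2 genes higher and 2 lower, with 0 of the 10 among them. Chac1 was the one gene of the 10 with an unadjusted p under 0.05. It was at 3.07, 3.76 and 4.90 RPKM in dyW PBS and at 1.67, 1.39 and 0.707 RPKM in dyW TD139 mice, on 87, 252 and 239 against 117, 96 and 49 reads. Every TD139 value was below every PBS value, and how many of all genes lay apart in this way was not counted. In edgeR the log2 fold change was -1.61 ± 0.45 (SE; adjusted p = 0.888; unadjusted p = 0.00365 from the same fit across all genes), and -1.13 to -1.88 over 15 alternatives. In the authors' deposited table of this comparison Chac1 had a log2 fold change of -1.61 with an FDR p of 0.00310, and it was the one gene of the 10 among 41 genes higher and 27 lower at an FDR p under 0.05 there.

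Macrophage genes summed to 203 to 249.7 RPKM in dyW TD139 and adipocyte genes to 52.5 to 332 RPKM, both overlapping dyW PBS. Genes of mature fast fibres summed to 68895 to 78492 RPKM in dyW TD139 and to 86208 to 100862 RPKM in dyW PBS, and those of regenerating fibres to 119 to 135 against 139 to 183 RPKM, both lower in every TD139 mouse, with 0 of 10 genes past the threshold in either list and 0 at an unadjusted p under 0.05 (edgeR). Their part in the Chac1 values was not tested.

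The other 9 genes had log2 fold changes from -0.37 ± 0.35 for Trib3 to 0.11 ± 0.36 for Atf3 under TD139. Atf4 was at 89.7, 89.3 and 85.3 RPKM in dyW PBS and at 68.4, 64.6 and 74.7 RPKM in dyW TD139 mice, with no overlap. Its log2 fold change was -0.31 ± 0.19 (SE; adjusted p = 0.888, edgeR), and the share of all genes without overlap was not counted. Asns was at 0.811, 1.70 and 1.35 RPKM, Psat1 at 1.95, 2.12 and 2.40 RPKM and Phgdh at 1.70, 3.32 and 2.47 RPKM in dyW TD139 mice, all overlapping dyW PBS. The log2 fold changes of these enzymes were 0.09 ± 0.35, -0.12 ± 0.23 and -0.14 ± 0.34.

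In WT mice TD139 was compared with PBS in 2 against 3 libraries, and again 0 of the 10 and 0% of 15331 genes passed in edgeR, with 304 genes at an unadjusted p under 0.05 and 2 higher and 1 lower by DESeq2. Chac1 was at 6.36 and 4.07 RPKM in WT TD139 mice, the first within the WT PBS range of 4.95 to 13.6 RPKM and the second below it, with a log2 fold change of -0.60 ± 0.48. The fold change of Chac1 under TD139 was 0.328 in dyW and 0.659 in WT mice, further below 1 in dyW, and the ratio of these fold changes was 0.498, with an SE of 0.64 on the log2 scale (adjusted p = 1, edgeR). By that test of a difference 0 of the 10 genes and 0% of all genes passed, with 294 genes at an unadjusted p under 0.05 and 1 gene called higher by DESeq2.

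Between the genotypes under TD139, Chac1 was the 1 gene of the 10 to pass in edgeR. Its log2 fold change was -2.39 ± 0.48 (SE; adjusted p = 0.0414, edgeR), from 6.36 and 4.07 RPKM in WT TD139 mice to at most 1.67 RPKM in dyW TD139 mice, while 0.757% of 15331 genes were higher and 0.287% lower. Those 116 and 44 genes became 4 and 2 without WT TD139 replicate 1, and at most 70 and 21 without any other library. Chac1 remained lower in all 14 alternatives but missed the threshold in 7, among them the removal of any 1 of the 5 libraries, where the adjusted p was 0.0651 to 0.244. Asns was next, at 0.511 and 0.361 RPKM in WT TD139 mice, with a log2 fold change of 1.22 ± 0.42 (SE; adjusted p = 0.191, edgeR), followed by Ddit3 at 0.60 ± 0.27 (adjusted p = 0.306). Gpt2 was lower here too (-1.78 ± 0.29, adjusted p = 0.0174, edgeR), a call lost in 4 of 14 alternatives, without dyW TD139 replicate 1, 2 or 3 or WT TD139 replicate 1. The genotype comparisons under PBS and TD139 compare different libraries, but both take their estimate of spread from the same fit of the treated cohort. The contrasts of TD139 with PBS, in dyW and in WT mice, share libraries with both.

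From mouse to mouse within groups, the 10 genes did not move as a block. Of their 45 pairs, 28 had a correlation of deviations above 0 over 18 libraries, with a median of 0.14. The closest pairs were Asns with Psat1 (r = 0.77), Atf4 with Ddit3 (r = 0.70), Asns with Phgdh (r = 0.65) and Chac1 with Eif4ebp1 (r = 0.63), and 6 of the 9 pairs with Chac1 were below 0. The genes most like the others were Ccnd2 (r = 0.90), Dram1 and Slc13a4 for Psat1; Lep (r = 0.87), the fat cell hormone leptin, Inhbb and Nrn1 for Phgdh; and Cd302 (r = 0.91), Rufy2 and Zfp719 for Trib3. For Chac1 they were Dpep1 (r = 0.82), which also acts on glutathione breakdown products, Sec62 and Inpp5k; for Atf3, Ptger1 (r = 0.85), Fcer2a and Unc13a; and for Eif4ebp1, Kars (r = 0.88), Slc43a1 and Mocs1. The libraries share depth, composition and the outlying mice named above, and these values are descriptions.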

How the data were processed

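Whole quadriceps RNA was sequenced from 18 mice in 6 groups. The authors deposited, per library, exon read counts per gene and RPKM values, with mm10 named in the submitters' processing notes. The aligner, counter, annotation and strand setting are not given in the sources used here, nor whether a count is a read or a pair. The deposited TPM columns, and the signed linear fold change in the authors' deposited tables (treated as a score), were not used. The authors' deposited tables of log2 fold changes, p-values and FDR p-values were used only where named. From the deposited counts, genes were filtered (filterByExpr, minimum count 10, minimum total 15), scaled by TMM and tested with edgeR 4.0.16 (quasi-likelihood F test, Benjamini-Hochberg adjusted p under 0.05 over all genes tested; R 4.3.3); the untreated cohort and the treated cohort were fitted separately, and the difference of the genotype effects on all 18 libraries. Within-group deviations used log2 CPM with a prior count of 2. Alternatives were DESeq2 1.42.0, limma 3.58.1 on log2(RPKM + 0.1) and log2(RPKM + 1), RLE size factors, no filter, other designs, each library left out and, added after seeing the data, an adipocyte term and untreated dyW replicates 3 and 4 left out together. The scripts were tested on simulated data. Up to 3 genes per pathway list and direction are named by smallest p. The members and lists were chosen with earlier results of these data known. Depth was 15814395 to 45249183 exon reads. Where nothing but an animal number separates libraries, p-values measure the spread between these mice. The result of 1 marker list is not reported here.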

Additional observations from a re-analysis of the deposited data

How the results depend on the processing

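No paired analysis was possible because each library has its own animal number and the groups share none. Over the alternatives run, single-gene results comprised 1587 with the same direction and call, 144 that no longer passed, 9 that newly passed and 35 that changed sign. In untreated mice, limma on log2(RPKM + 0.1) and log2(RPKM + 1) gave 0.48 and 0.47 for Atf4, 0.20 and 0.06 for Atf3, 0.07 and 0.06 for Eif2s1, 0.14 and 0.13 for Eif2b2, 0.03 and 0.02 for Impact, 0.11 and 0.10 for Cebpg, 0.10 and 0.09 for Dnajc3, and 0.19 and 0.17 for Sel1l, where no composition correction is made. Atf4 was also 0.11 with the adipocyte term, 0.01 without untreated dyW replicate 1 and 0.10 without replicate 2 (-0.11 to 0.10 over libraries left out). Leaving out 1 library gave 5 to 6 genes higher and 1 to 1 lower. The lower gene was Chac1, except without untreated WT replicate 2, where Atf3 passed as lower and Chac1 did not. Over all genes those fits gave 2798 to 3961 higher and 2913 to 3752 lower. Ratios of mean RPKM became, as log2 ratios of TMM-scaled CPM in untreated mice, -0.06 for Atf4, 0.50 for Atf5, 1.46 for Trib3, 1.45 for Phgdh and 0.84 for Eif4ebp1, and in PBS mice 0.10 for Atf4, 0.29 for Trib3 and 0.07 for Eif4ebp1. In the PBS comparison 1 gene was higher under DESeq2, both limma settings and without WT PBS replicate 1 (range 0 to 1), and 1 lower under DESeq2. There Phgdh was -0.22 with the adipocyte term, Atf4 -0.04 and Eif4ebp1 -0.07 without WT PBS replicate 1, Eif4ebp1 -0.08 without dyW PBS replicate 3 (up to 0.18), and Atf3 -0.09 without WT PBS replicate 3. For dyW TD139 against dyW PBS, Atf3 was -0.05 and -0.03 under the limma settings and -0.42 without dyW TD139 replicate 3 (up to 0.37), and Asns -0.00 under limma on log2(RPKM + 0.1) and -0.18 without dyW TD139 replicate 2 (up to 0.33). Without dyW PBS replicate 2, Atf5 was 0.01, Ddit3 0.05 and Phgdh 0.10, and their lowest values without another library were -0.35, -0.20 and -0.41. Eif4ebp1 was 0.07 without dyW PBS replicate 3 and Phgdh 0.07 without dyW TD139 replicate 1. In WT mice Chac1 under TD139 was 0.04 without WT PBS replicate 3 and -0.97 without WT TD139 replicate 1. Between genotypes under TD139, the count of lower genes was 0 under limma on log2(RPKM + 1), with the adipocyte term and without any 1 library (0 to 0). The difference between cohorts gave 1 higher gene, Trib3, under limma on log2(RPKM + 1). The cause was not tested for any of these. Low counts limit Trib3 (17 reads at the lowest), and 2 to 4 mice a group limit all comparisons.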
